A study of Homo sapiens with 5 samples.

Results

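The genes described here are 47 protein-coding genes for RNA-binding proteins that regulate splicing, out of 33857 genes listed in a poly(A+) RNA-seq table of the human embryonic stem cell line H9. They were taken by name: 22 genes whose symbol starts with HNRNP, 12 whose symbol starts with SRSF, and 13 others, namely PTBP1, PTBP2, PTBP3, TRA2A, TRA2B, ESRP1, ESRP2, RBFOX2, MBNL1, MBNL2, MBNL3, SFPQ and NONO. The rule uses no measured value, though the families were picked with earlier results of these data known. The table covers 2 mock control samples, which are clones transfected with an empty CRISPR/Cas9 vector, and 3 CFIm25-m samples, clones in which CFIm25 was edited with 3 independent guide RNAs. All clones were puromycin-selected H9 cells grown in mTeSR medium and received no further treatment. CFIm25, encoded by NUDT21, is a subunit of cleavage factor Im, which binds pre-mRNA upstream of poly(A) sites. The labels call the groups control KO and CFIm25 KO. As the study describes them, each edited clone kept an in-frame allele and a reduced amount of protein with a short N-terminal deletion, so the edited cells are a knockdown with mutation and not a null. Each sample is a different clone, and p-values measure the spread between these clones. The question put to the table was whether the mRNA levels of these regulators differed between CFIm25-m and mock control.

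The recovered libraries held between 18754108 and 23372391 reads. NUDT21 had normalized counts of 6503 and 6398 in mock control 1 and 2 and of 4035, 3281 and 3400 in CFIm25-m 1, 2 and 3. It was lower in every edited clone (6451 ± 74.0, SD, n = 2, against 3572 ± 405, SD, n = 3), for a log2 fold change of -0.86 (SE 0.11, adjusted p = 0.00431, limma-trend). Without either mock control NUDT21 was no longer past the threshold, at -0.85 without the first and -0.87 without the second. Of 12 markers of primed embryonic stem cells, all were tested and 0 passed an adjusted p of 0.05 in limma-trend or edgeR, while DESeq2 called 1, SALL4, and 3 were at an unadjusted p below 0.05 in limma-trend. Their summed normalized count was 243511 to 247798 in mock control and 219487 to 229371 in CFIm25-m, but the markers did not share a direction. In 4 (DNMT3B, LIN28A, SALL4 and NANOG) every clone lay below both mock controls (33.3%, against 19.8% of all tested genes). In 3 (POU5F1, TDGF1 and PODXL) every clone lay above both (25%, against 17.0%), and 5 overlapped. Of 10 germ layer markers 5 reached the filter, and FOXA2, GATA4, PAX6, SOX17 and TBXT lay below it. The sums over all 10 were 154 to 155 in mock control and 142 to 151 in CFIm25-m. Of 5 fibroblast markers COL3A1, DCN and LUM lay below the filter. The sums over all 5, nearly all COL1A1, were 8687 to 9239 in mock control and 6320 to 7720 in CFIm25-m. COL1A1 was lower in every clone (log2 fold change -0.42, adjusted p = 0.0828 in limma-trend and 0.0154 in DESeq2). PDGFRB had 503 and 523 in mock control and 569, 889 and 725 in CFIm25-m (0.48, adjusted p = 0.210, limma-trend). The part of these marker levels in the results below was not tested. CFIm25-m 3 stood apart from the other clones: sample quality weights estimated over all genes were 2.02 for each mock control and 1.37, 0.648 and 0.276 for CFIm25-m 1, 2 and 3. Without it the log2 fold changes of 6 of the 47 members changed sign (HNRNPA1, HNRNPH1, RBFOX2, SRSF6, SRSF11 and TRA2A) and those of 24 others moved by more than 1.5 times. These values are given below for the members described.

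Splicing regulators of these families bind short motifs in pre-mRNA and change which splice sites the spliceosome uses. SR proteins carry RNA recognition motifs and a domain rich in arginine and serine, and typically promote the use of an exon when they bind within it. Heterogeneous nuclear ribonucleoproteins (hnRNPs) coat nascent transcripts and often repress nearby splice sites. PTBP, ESRP, RBFOX and MBNL proteins act more selectively, with effects that depend on where they bind relative to the exon. Several of these factors mark cell states: ESRP proteins drive epithelial splicing and are present in pluripotent cells, PTBP2 replaces PTBP1 in developing neurons, and MBNL proteins promote differentiated splicing patterns and are kept low in embryonic stem cells. Many SR and hnRNP genes also control their own mRNA through poison exons or alternative 3′ ends.

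All 47 genes passed the filter on low values, set at 10 normalized counts in 2 or more samples, as did 19232 of all listed genes. MBNL2 passed only through its values in CFIm25-m. Divided by gene length, the members had a median level of 879 normalized counts per kilobase, against 66.7 for all tested genes, and 33 of 47 were in the top 10% of tested genes. HNRNPA1, the archetypal hnRNP and a repressor of many exons, had the highest level at 13031 ± 1030 per kilobase (SD over the 5 samples). That was 2.44 times the level of the next gene, HNRNPAB, at 5336 ± 372. HNRNPK (4410 ± 473), HNRNPA2B1 (3303 ± 104) and HNRNPC (2948 ± 470) followed. At the other end, 4 members lay below the median of all tested genes: SRSF12 at 41.0 ± 7.82, MBNL1 at 22.8 ± 3.86, MBNL3 at 8.63 ± 0.803 and MBNL2 at 3.45 ± 1.96 per kilobase. Of the 46 pairs of neighbours in this order, 37 had ranges over the samples that overlapped, so most of the order was not resolved. The 9 separate steps came after HNRNPA1, HNRNPK, NONO, HNRNPU, HNRNPLL, SRSF8, SRSF12, MBNL1 and MBNL3. The lengths are those deposited with the table, 1 per gene whatever isoform the cells use.

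**Figure D1:**
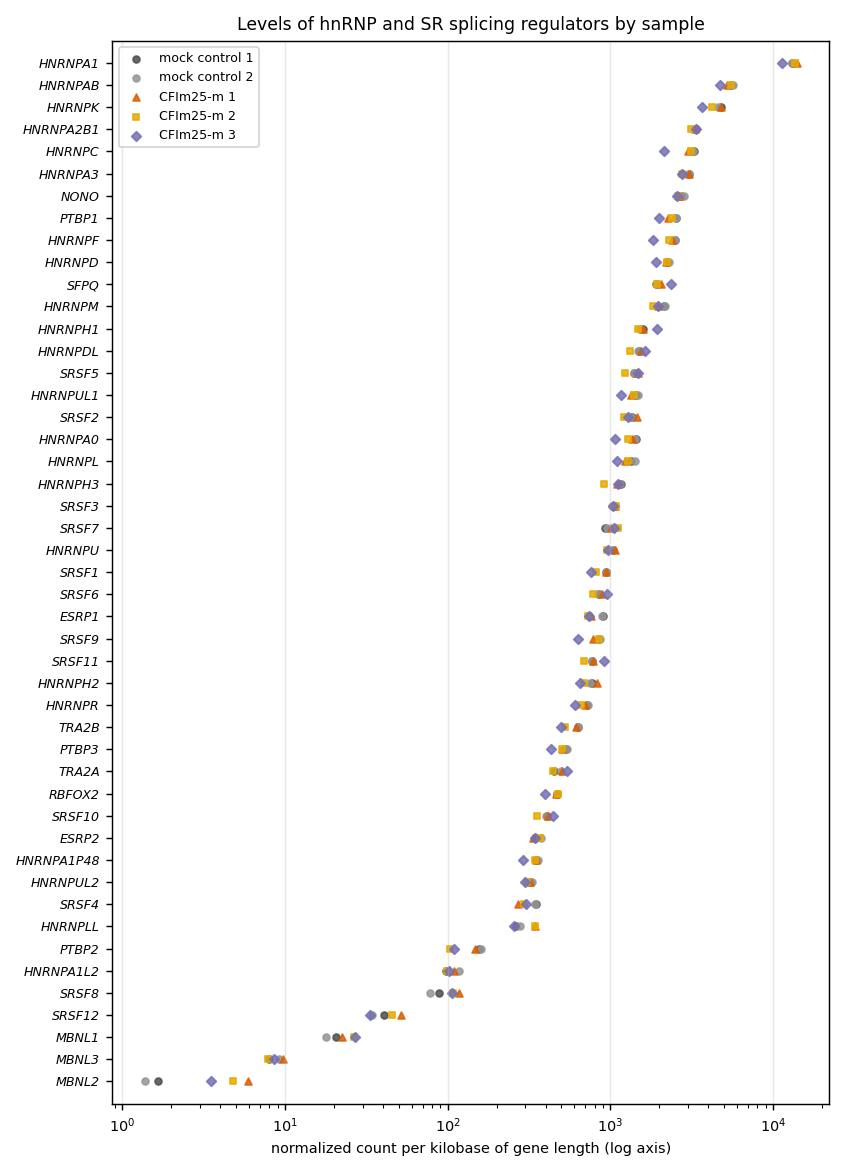
Normalized count per kilobase of gene length (log axis) of each of the 47 genes in each sample, ordered by the mean over the 5 samples. Circles are mock controls and triangles, squares and diamonds are CFIm25-m 1, 2 and 3. HNRNPA1 is the highest at 13031 on average and MBNL2 the lowest at 3.45, and for most genes the symbols of the groups lie on top of each other.

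No member reached an adjusted p below 0.05 between CFIm25-m and mock control. Limma-trend called 0 members lower (0.936% of all tested genes were called lower) and 0 higher (0.941%), and 1.88% of tested genes were called in either direction. edgeR called 0 members (1.81% of all tested genes) and DESeq2 called 0 (3.27%). At an unadjusted p below 0.05, 6 of 47 members passed in limma-trend (12.8%, against 15.1% of all tested genes). edgeR and DESeq2 also put 6 members below that value, against 14.9% and 11.9% of tested genes. The 6 in limma-trend were MBNL2, SRSF8 and MBNL1, which were higher in CFIm25-m, and PTBP2, ESRP1 and SRSF4, which were lower. The smallest adjusted p of a member was 0.100, for MBNL2 in limma-trend. These are bulk samples, in which fewer cells that express a gene and less of its RNA per cell cannot be told apart.

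The precision was high enough to bound most changes. The standard errors of the log2 fold changes ran from 0.085 to 0.39 with a median of 0.11. The 95% interval lay within a log2 change of 1 in either direction for 46 of 47 members (72.9% of all tested genes), MBNL2 being the exception. It lay within 0.5 for 40 members, or 85.1%, against 42.7% of all tested genes and 84.8% of protein-coding genes with a mean normalized count of at least 1000. Among those 4697 abundant protein-coding genes 98 were called, and the smallest called log2 change was 0.41 in size.

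**Figure D2:**
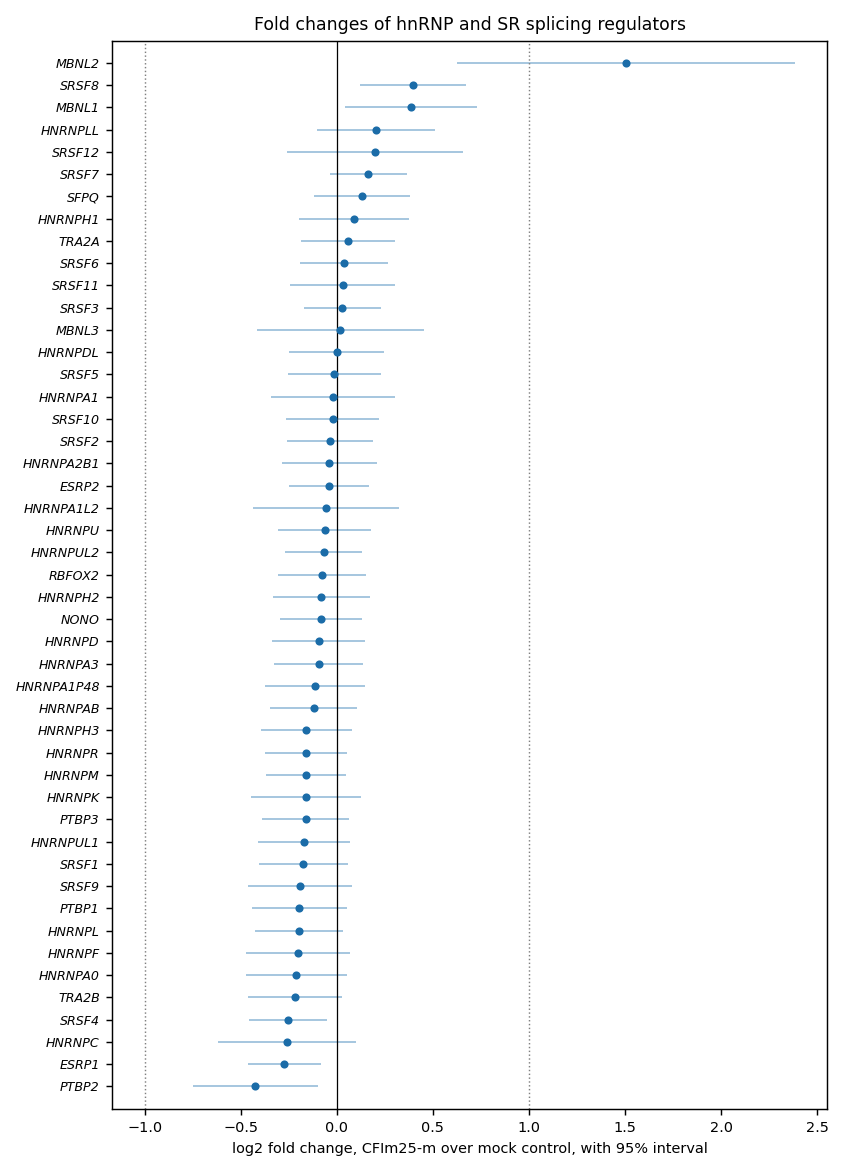
Log2 fold change of CFIm25-m over mock control for each of the 47 genes (points) with its 95% interval from limma-trend (lines), ordered by value. The solid vertical line marks 0 and the dotted lines mark 1 and -1. Values run from -0.43 for PTBP2 to 1.50 for MBNL2, and the interval of MBNL2 alone crosses a dotted line.

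The median log2 fold change of the members was -0.08, against -0.01 for all tested genes, and 34 of 47 (72.3%) were below 0, against 51.8% of all tested genes. Abundant protein-coding genes, those with a mean of at least 1000, had a median of -0.09, and 72.7% of them were below 0. Among the 40 members at that level the median was -0.09 and 80% were below 0. For 18 members every CFIm25-m sample lay below both mock controls (38.3%, against 19.8% of all tested genes and 35.7% of the abundant protein-coding genes). For 4 members, SRSF7, MBNL1, SRSF8 and MBNL2, every CFIm25-m sample lay above both (8.51%, against 17.0% of all tested genes and 7.98% of the abundant protein-coding genes). The groups overlapped for the remaining 25. Of the 40 members with a mean of at least 1000, 42.5% had every clone below both mock controls and 2.5% above. With each library scaled to its total reads instead of by the deposited size factors, the members' median was -0.0089 and 24 of 47 were below 0, while the median of all tested genes was 0.06. The small shift below 0 therefore depended on the scaling. Scaling moves all genes of a library together, so the distance between the members' median and that of all genes, -0.07, could hardly change. Over the other settings that distance ran from -0.09 without CFIm25-m 1 to -0.03 with sample quality weights.

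The 9 genes of the hnRNP A/B and D group bind AU-rich and UAG-containing sites and include the most abundant members. All 9 had log2 fold changes below 0 with the deposited size factors, 8 with TMM scaling and 5 with library totals. Their median was -0.09, and 2 had every edited clone below both mock controls (22.2%). The share was 19.8% of all tested genes and 35.7% of abundant protein-coding genes. HNRNPA1 had normalized counts of 67091 and 66463 in mock control and of 71393, 69239 and 57644 in CFIm25-m. CFIm25-m 1 and 2 were above both mock controls and CFIm25-m 3 was below, so the groups overlapped (log2 fold change -0.02, 95% interval -0.35 to 0.30, adjusted p = 0.961, limma-trend). HNRNPA2B1, which binds UAG motifs and takes part in RNA transport, had 31057 and 31140 in mock control and 30744, 28920 and 31188 in CFIm25-m. HNRNPAB, a single-strand nucleic acid binding protein, had 11781 and 12245 against 11167, 11822 and 10192. Both overlapped between groups, with log2 fold changes of -0.04 and -0.12. The largest difference of the group was that of HNRNPA0, which binds AU-rich elements, at -0.21 (adjusted p = 0.432, limma-trend). Without CFIm25-m 3 it was -0.11, that of HNRNPA1 0.07, that of HNRNPA2B1 -0.06 and that of HNRNPAB -0.06.

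The 9 genes of the group of hnRNP C, K, L, M, R and U had a median log2 fold change of -0.16. Of these 8 were below 0 (6 with library totals), and 5 had every edited clone below both mock controls. That was 55.6%, against 19.8% of all tested genes and 35.7% of abundant protein-coding genes. HNRNPC, which binds runs of U and keeps other factors off cryptic sites, had normalized counts of 23999 and 23410 in mock control and of 21878, 22878 and 15553 in CFIm25-m. All 3 clones were below both mock controls, but CFIm25-m 3 was far below the other 2 (log2 fold change -0.26, SE 0.16, adjusted p = 0.484, limma-trend). Without CFIm25-m 3 the log2 fold change of HNRNPC was -0.08. HNRNPK, which binds C-rich sequence, had 24392 and 23625 in mock control and 24489, 21438 and 18828 in CFIm25-m, so that CFIm25-m 1 was above both mock controls and the other clones below them (log2 fold change -0.16, and -0.07 without CFIm25-m 3). Without that clone the median of the group was -0.08.

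HNRNPL and HNRNPLL are paralogs that bind CA repeats, and HNRNPLL is known for switching CD45 splicing in activated T cells. HNRNPL (ENSG00000104824) had 9146 and 9614 normalized counts in mock control and 8410, 8701 and 7470 in CFIm25-m, all below both mock controls (log2 fold change -0.20, SE 0.10, adjusted p = 0.397, limma-trend). HNRNPLL (ENSG00000143889, GRCh38 chromosome 2, 38561978 to 38603586, minus strand) had 1555 and 1659 in mock control and 2042, 2051 and 1505 in CFIm25-m. CFIm25-m 1 and 2 were above both mock controls, and CFIm25-m 3 was below them. The log2 fold change of HNRNPLL was 0.20 (SE 0.14, 95% interval -0.11 to 0.51, adjusted p = 0.520, limma-trend) with all clones, and 0.35 (adjusted p = 0.0172, limma-trend) without CFIm25-m 3.

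The 4 genes of the hnRNP F/H group, which bind G-rich runs, had a median log2 fold change of -0.12. HNRNPF and HNRNPH3 had every edited clone below both mock controls, with log2 fold changes of -0.20 and -0.16. HNRNPH1 was at 0.09 and HNRNPH2 at -0.08, both with overlapping groups. Without CFIm25-m 3 the values were -0.09 for HNRNPF, -0.21 for HNRNPH3, -0.03 for HNRNPH1 and -0.01 for HNRNPH2. Over all 22 HNRNP genes, 20 (90.9%, against 72.7% of abundant protein-coding genes) had log2 fold changes below 0, with a median of -0.11. With TMM scaling 19 and with library totals 14 were below 0. HNRNPLL and HNRNPH1 were the exceptions with all clones, and HNRNPLL and HNRNPA1 without CFIm25-m 3, when the median was -0.07. In 9 of the 22 every edited clone was below both mock controls (40.9%, against 19.8% of all tested genes and 35.7% of abundant protein-coding genes), and in 0 every clone was above.

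The 12 SR protein genes did not share a direction: 6 were below 0 and 6 above, with a median log2 fold change of 0.01, while 5 were below 0 with TMM scaling, 3 with library totals and 8 without CFIm25-m 3. SRSF4, a large SR protein, and SRSF8, an intronless relative of SRSF2, were the furthest from 0 on either side. SRSF4 (ENSG00000116350, GRCh38 chromosome 1, 29147743 to 29181987, minus strand) had normalized counts of 3098 and 3057 in mock control and of 2405, 2637 and 2701 in CFIm25-m. All 3 clones were below both mock controls (log2 fold change -0.26, SE 0.092, 95% interval -0.46 to -0.05, adjusted p = 0.228, limma-trend). SRSF8 (ENSG00000263465, GRCh38 chromosome 11, 95067197 to 95071224, plus strand) had 358 and 315 in mock control and 472, 431 and 425 in CFIm25-m. All 3 clones were above both mock controls (log2 fold change 0.40, SE 0.12, 95% interval 0.12 to 0.67, adjusted p = 0.167, limma-trend). The sequences of SRSF2 and SRSF8 are alike, so reads may have been split between them. SRSF2 itself had 4104 and 4037 in mock control and 4380, 3670 and 3893 in CFIm25-m, with overlapping groups.

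Among the other SR genes, SRSF7, whose protein links splicing to mRNA export, had 3770 and 3879 normalized counts in mock control and 4076, 4511 and 4276 in CFIm25-m. Every clone was above both mock controls, by 0.16 on the log2 scale (adjusted p = 0.425, limma-trend). SRSF12, the least abundant SR gene and a relative of the splicing repressor SRSF10, had 184 and 155 in mock control and 236, 207 and 151 in CFIm25-m. CFIm25-m 3 was the lowest of the 5 samples, and the groups overlapped (log2 fold change 0.20, SE 0.20, adjusted p = 0.678, limma-trend, and 0.38 without CFIm25-m 3). SRSF3, another SR protein linked to export, was at 0.03 with an interval of -0.17 to 0.23. SRSF1, the founding SR protein, and SRSF9 had every clone below both mock controls, at -0.18 and -0.19, and at -0.11 and -0.08 without CFIm25-m 3. The TRA2 proteins resemble SR proteins and bind GAA-rich exonic sites. TRA2B had 7461 and 7450 in mock control and 7261, 6215 and 5823 in CFIm25-m, all below both mock controls (log2 fold change -0.22, adjusted p = 0.385, limma-trend). TRA2A overlapped between groups, with 1585 and 1757 against 1777, 1556 and 1895 (0.06, and -0.01 without CFIm25-m 3).

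SRSF8 and SRSF4 were the extremes of CpG content among the 39 members with a RefSeq start window. A relation of CpG content to the fold changes was not tested. RefSeq start windows of GRCh38.p14, which run from 250 bases before to 50 bases after a gene's start, were matched by symbol for 39 of the 47 genes, 60 windows in all. For each gene the window nearest to its listed 5′ end was used, and 36 of the 39 were within 1000 bases of it. These windows held a median of 30 CpG dinucleotides, against 14 over all 35116 windows, with a range from 3 in SRSF8 to 48 in SRSF4. Only MBNL2, with 5, and SRSF8 had 5 or fewer. The stretches that lie before both the RefSeq start and the listed 5′ end are given for these extremes, read 5′ to 3′ on the gene's strand, with CpG in capitals. The one for SRSF8 is chr11:95066669-95066918 (plus strand, 250 bases, 2 CpG) and the one for SRSF4 is chr1:29181988-29182150 (minus strand, 163 bases, 21 CpG).
SRSF8: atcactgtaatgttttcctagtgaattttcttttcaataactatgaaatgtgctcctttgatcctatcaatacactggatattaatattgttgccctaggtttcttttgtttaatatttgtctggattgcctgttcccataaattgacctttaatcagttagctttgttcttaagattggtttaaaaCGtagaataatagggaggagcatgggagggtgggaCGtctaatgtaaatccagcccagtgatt
SRSF4: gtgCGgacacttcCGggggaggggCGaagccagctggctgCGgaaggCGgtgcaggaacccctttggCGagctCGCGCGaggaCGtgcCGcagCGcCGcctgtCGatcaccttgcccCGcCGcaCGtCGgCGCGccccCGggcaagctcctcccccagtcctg

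In motif content the 39 windows were searched on both strands for CCAAT, for the GC box GGGCGG and for TATAAA. The first was found in 19 (48.7%, against 34.6% of all windows), GGGCGG in 25 (64.1%, against 45.0%) and TATAAA in 4 (10.3%, against 11.5%). The SRSF8 window held 1 CCAAT and 0 GGGCGG, and the SRSF4 window 0 CCAAT and 2 GGGCGG. These are letter matches and not measured binding sites.

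The PTBP genes encode repressors that bind pyrimidine-rich tracts. All 3 had every edited clone below both mock controls, with a median log2 fold change of -0.20 and with values below 0 under each scaling. Of all tested genes 19.8% lay below in every clone, as did 35.7% of abundant protein-coding genes. PTBP1, the form of most dividing cells, had normalized counts of 17418 and 17558 in mock control and of 15568, 16555 and 13791 in CFIm25-m (log2 fold change -0.20, SE 0.11, adjusted p = 0.439, limma-trend). PTBP2 (ENSG00000117569, GRCh38 chromosome 1, 96721665 to 96823738, plus strand), the neuronal form, had 2024 and 2086 in mock control and 1915, 1330 and 1405 in CFIm25-m. CFIm25-m 1 was close to the mock controls and the other 2 clones were well below them. Its log2 fold change of -0.43 (SE 0.15, 95% interval -0.75 to -0.10, adjusted p = 0.204, limma-trend) was the lowest of the members. PTBP3, first described in blood cells, had 4388 and 4458 against 4177, 4156 and 3549 (-0.16, adjusted p = 0.480, limma-trend). Without CFIm25-m 3 the log2 fold changes were -0.12 for PTBP1, -0.36 for PTBP2 and -0.09 for PTBP3. PTBP1 protein is known to repress PTBP2 through exon skipping and decay. The level of PTBP2 per kilobase was 6.18% and 6.32% of that of PTBP1 in mock control and 6.55%, 4.27% and 5.42% in CFIm25-m, with overlapping groups.

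ESRP1 and ESRP2 promote epithelial exon choices, such as that of FGFR2. ESRP1 (ENSG00000104413) had normalized counts of 4402 and 4340 in mock control and of 3713, 3551 and 3588 in CFIm25-m. The 3 clones lay close together and all below the mock controls (log2 fold change -0.27, SE 0.085, 95% interval -0.46 to -0.08, adjusted p = 0.166, limma-trend). ESRP2 overlapped between groups, with 1919 and 2070 against 1860, 2045 and 1909 (log2 fold change -0.04, 95% interval -0.25 to 0.17). Per kilobase, ESRP2 was 38.2% and 41.8% of ESRP1 in mock control and 43.9%, 50.5% and 46.6% in CFIm25-m, and these groups did not overlap. RBFOX2, which binds UGCAUG and shapes splicing in embryonic stem cells, had 4715 and 4675 in mock control and 4615, 4788 and 3984 in CFIm25-m (log2 fold change -0.08, adjusted p = 0.757, limma-trend, and 0.0018 without CFIm25-m 3).

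The MBNL genes were the least abundant and the only class with a median well above 0 (0.39 for 3 genes). MBNL1 (ENSG00000152601), the main muscleblind gene of most tissues, had normalized counts of 205 and 180 in mock control and of 223, 266 and 268 in CFIm25-m. Every clone was above both mock controls (log2 fold change 0.39, SE 0.15, 95% interval 0.04 to 0.73, adjusted p = 0.276, limma-trend). MBNL2 (ENSG00000139793, GRCh38 chromosome 13, 97221434 to 97394120, plus strand), which is most used in brain, had 8.07 and 6.76 in mock control and 29.1, 23.4 and 17.3 in CFIm25-m. These counts stand for 7 reads in each mock control and for 29, 26 and 18 reads in the clones. The 3 clones did not overlap the mock controls, with a log2 fold change of 1.50 (SE 0.39, 95% interval 0.62 to 2.38, adjusted p = 0.100, limma-trend). Both mock controls lay below the filter value of 10, so MBNL2 entered the test only through the clones. Its place among the tested genes is no support for a difference. MBNL3, the X-linked paralog, overlapped between groups, with 96.8 and 112 against 118, 95.4 and 104 (0.02, interval -0.42 to 0.45, and 0.03 without CFIm25-m 3). Against MBNL1, the level of MBNL2 per kilobase was 8.0% and 7.66% in mock control and 26.6%, 17.9% and 13.1% in CFIm25-m.

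**Figure D3:**
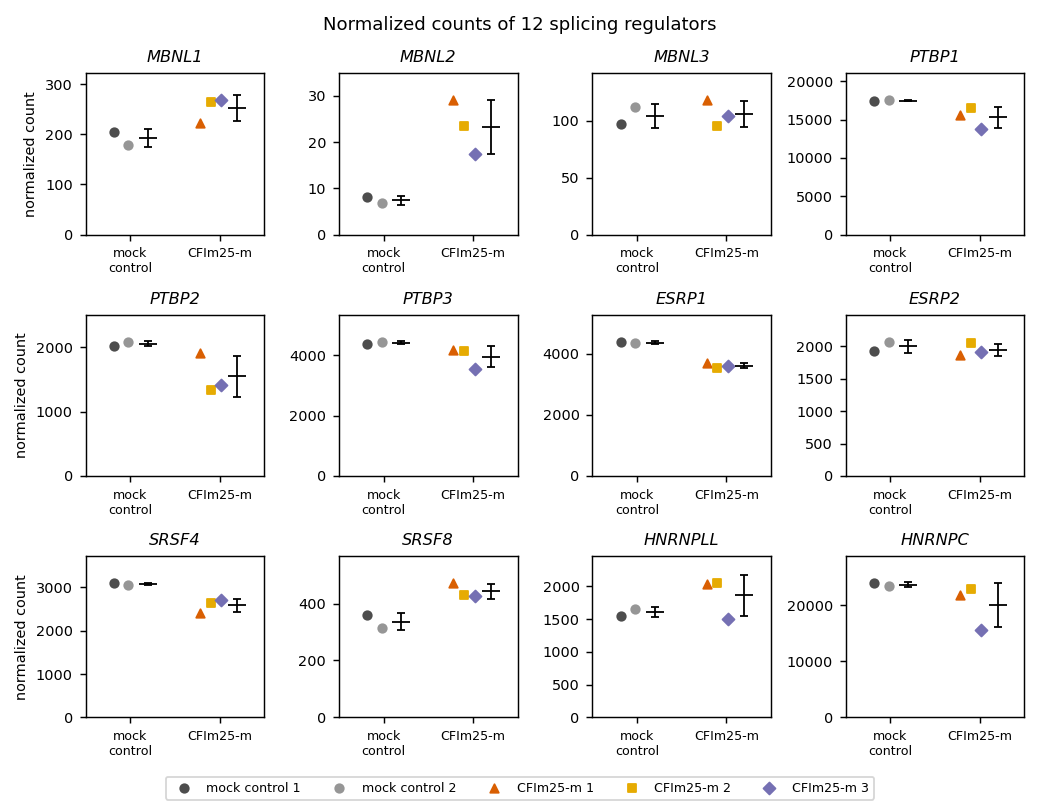
Normalized count of 12 of the regulators in each sample, 1 panel per gene with an axis from 0. Circles are mock controls, triangles, squares and diamonds are CFIm25-m 1, 2 and 3, and the bars show the mean and SD of each group (n = 2 and n = 3). The groups are separate for MBNL1, MBNL2, PTBP1, PTBP2, PTBP3, ESRP1, SRSF4, SRSF8 and HNRNPC and overlap for MBNL3, ESRP2 and HNRNPLL. These 12 were chosen for display. Of all 47 members 38.3% had every clone below both mock controls and 8.51% above, against 19.8% and 17.0% of all tested genes.

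SFPQ and NONO form paraspeckle heterodimers that act in splicing, transcription and nuclear retention of RNA. SFPQ had 14250 and 14467 normalized counts in mock control and 15306, 14458 and 17488 in CFIm25-m, with overlapping groups (log2 fold change 0.13, adjusted p = 0.617, limma-trend, and 0.05 without CFIm25-m 3). NONO had 14391 and 14980 against 14037, 13870 and 13653, all clones below both mock controls (-0.08, adjusted p = 0.711, limma-trend). The SFPQ level per kilobase was 70.6% and 68.8% of that of NONO in mock control and 77.7%, 74.3% and 91.3% in CFIm25-m. For TRA2A over TRA2B the values were 71.1% and 79.0% against 81.9%, 83.8% and 109%. For HNRNPLL over HNRNPL they were 19.6% and 19.9% against 28.0%, 27.1% and 23.2%, and for SRSF8 over SRSF2 6.54% and 5.84% against 8.07%, 8.80% and 8.18%. In these 4 ratios every clone was above both mock controls. The ratios of PTBP3 to PTBP1, MBNL3 to MBNL1 and HNRNPA1L2 to HNRNPA1 overlapped. The 10 ratios were chosen after the values had been seen and were not tested. The share of such separate ratios among other gene pairs was not examined. With 2 samples against 3 there are 10 arrangements, so the smallest one-sided exact permutation p is 0.1.

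The mock controls resembled each other more closely than the edited clones did. The median absolute log2 difference between the mock controls was 0.035 over the members and 0.10 over all tested genes. The median range over the 3 clones was 0.27 for the members and 0.36 for all tested genes. A range over 3 samples tends to exceed a difference of 2 at equal spread, so the measures are not alike. The members' median difference from the mean of the mock controls was -0.01 in CFIm25-m 1, -0.10 in CFIm25-m 2 and -0.13 in CFIm25-m 3. CFIm25-m 3 was the lowest clone for 25 of 47 members (53.2%), against 41.3% of all tested genes and 58.8% of abundant protein-coding genes. The HNRNP genes had clone medians of -0.02, -0.11 and -0.22, and the SRSF genes of 0.05, -0.13 and 0.04, so the lowest median was that of CFIm25-m 3 for the HNRNP genes and of CFIm25-m 2 for the SRSF genes. CFIm25-m 2 and CFIm25-m 3 were each the lowest clone for 5 of the 12 SRSF genes. The members together took 1.98% of all normalized counts in each mock control and 2.05%, 1.93% and 1.92% in CFIm25-m, a mean of 1.97% ± 0.0701 (SD, n = 3), and the groups overlapped.

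**Figure D4:**
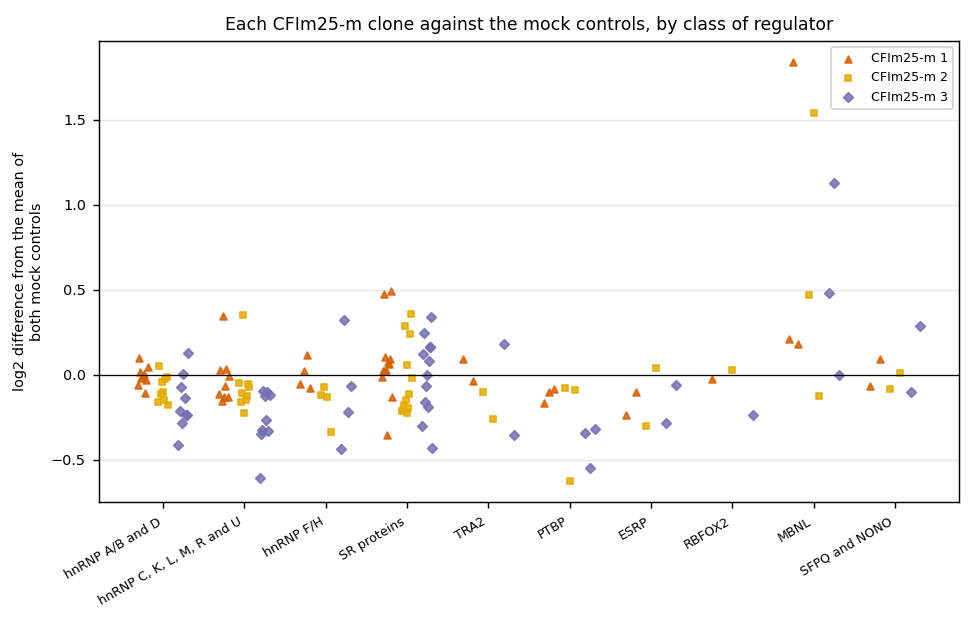
Log2 difference of each CFIm25-m clone from the mean of both mock controls for every member, grouped by class. Triangles, squares and diamonds are CFIm25-m 1, 2 and 3, and each point is 1 gene. CFIm25-m 3 has the lowest point in the group of hnRNP C, K, L, M, R and U (HNRNPC, -0.61), and the highest points of the plot are those of MBNL2.

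The number of members called depended on how CFIm25-m 3 was treated. Without it, limma-trend called ESRP1 and SRSF4 lower (2 of 47, against 2.79% of all tested genes) and HNRNPLL and MBNL2 higher (2 of 47, against 2.76%). In total 4 of 47 members, or 8.51%, were called against 5.55% of tested genes. MBNL2 is among these and among the calls with sample quality weights below. It entered the test only through the clones, so these calls of MBNL2 are no support for a difference. The log2 fold changes were then -0.27 for ESRP1 (adjusted p = 0.0271, limma-trend), -0.29 for SRSF4 (adjusted p = 0.0358) and 1.69 for MBNL2 (adjusted p = 0.0399). With sample quality weights, the same 4 genes and SRSF8 were called, 2 lower (4.63% of tested genes) and 3 higher (4.64%), where 9.27% of tested genes passed in either direction. Leaving out any other single sample gave 0 calls among the members in limma-trend, with 8, 7, 3 and 1 members at an unadjusted p below 0.05 without CFIm25-m 1, CFIm25-m 2, mock control 1 and mock control 2.

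Other genes of the splicing machinery were compared with the members in 5 lists. Of 128 listed genes 126 were tested, 1 was called (0.794%, against 1.88% of all tested genes), and their median log2 fold change was -0.05. The 12 SR protein kinases and import receptors, which phosphorylate SR proteins and carry them to the nucleus, had 0 calls and a median of -0.10. Their largest change was that of CLK1 at -0.23. The 31 SR-related proteins had 0 calls and a median of 0.00, with SRRM4, a neuronal microexon factor, at 0.30. Of 23 hnRNP relatives and other nuclear RNA-binding proteins 22 were tested, with 0 calls and a median of -0.13. RALYL was the furthest from 0 at -1.17 (adjusted p = 0.265, limma-trend). It had 12.7 and 12.5 normalized counts in mock control and 5.01, 5.40 and 4.81 in CFIm25-m. RALYL entered the test only through the mock controls, so its place among the tested genes is no support for a difference. At an unadjusted p below 0.05, 11 of the 126 genes passed in limma-trend (8.73%, against 15.1% of all tested genes). edgeR called 1 of the 126 (0.794%, against 1.81%) and DESeq2 called 2 (1.59%, against 3.27%).

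The gene called was ELAVL2, a neuronal Hu protein of the list of other alternative splicing regulators (35 of 36 tested, median 0.06). It had normalized counts of 278 and 281 in mock control and of 490, 492 and 452 in CFIm25-m, every clone well above both mock controls. ELAVL2 rose with a log2 fold change of 0.77 (SE 0.12, adjusted p = 0.0103 in limma-trend and 0.0107 in edgeR). It was no longer called without mock control 1 (0.76, adjusted p = 0.164, limma-trend), mock control 2 (0.78, adjusted p = 0.149) or CFIm25-m 1 (0.75, adjusted p = 0.0621). Its paralog ELAVL4 had 17.3 and 11.6 against 43.1, 33.3 and 77.9 (1.70, adjusted p = 0.0680 in limma-trend and 0.0185 in DESeq2). The 26 core U1 and U2 snRNP proteins and U2AF subunits had 0 calls in limma-trend and a median of -0.08. U2AF1, which reads the 3′ splice site, had the largest value among them, 148 and 164 in mock control and 251, 303 and 595 in CFIm25-m (1.19, adjusted p = 0.0893, limma-trend). U2AF1L5 is a near-identical copy, at 340 and 610 against 291, 330 and 343. The sum of both was 488 and 774 against 541, 634 and 939, and its groups overlapped, so the value of U2AF1 is uncertain. Without CFIm25-m 3 it was called at 0.82 (adjusted p = 0.0123, limma-trend).

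**Figure D5:**
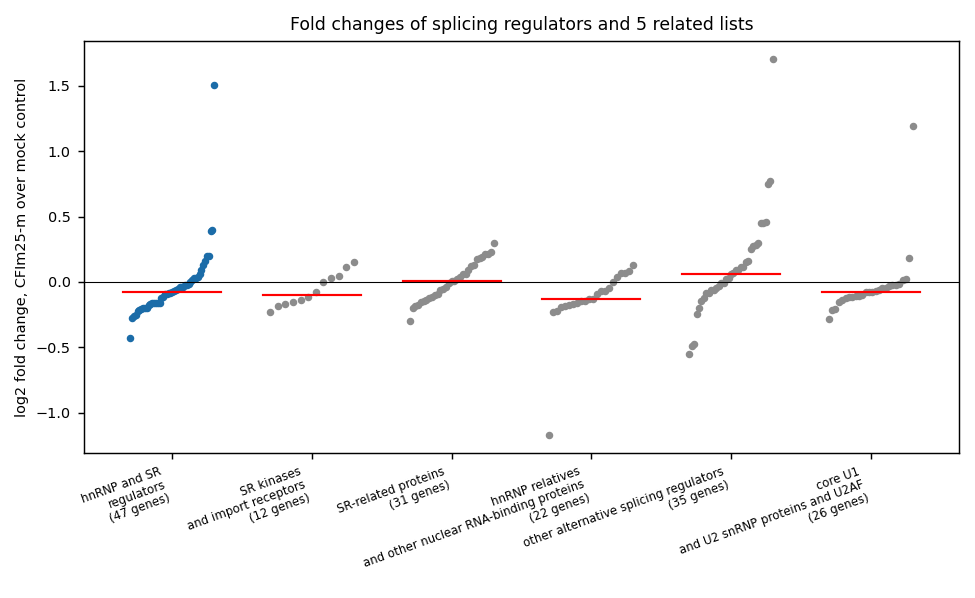
Log2 fold changes of CFIm25-m over mock control for the 47 members (blue) and for the tested genes of 5 related lists (grey), each gene a point in order of its value. The red lines are the medians, which run from -0.13 for the hnRNP relatives to 0.06 for the other alternative splicing regulators.

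The table holds 1 value per gene, so inclusion of poison exons, alternative 3′ ends and other isoforms of these genes was not analysed here. Of the 47 genes 24 overlap another listed gene, 19 of them on the opposite strand, and the strand setting of the counting is not given in the sources used here. An opposite-strand neighbour had more than 10% of the member's level for 4 genes: SRSF9 (GATC, 15.1%), HNRNPA2B1 (CBX3, 18.0%), ESRP2 (NFATC3, 30.6%) and MBNL3 (RAP2C-AS1, 34.0%). None of these 4 was past the threshold in limma-trend, and all had an unadjusted p above 0.05. The percentages use the whole count of the neighbour. The stretch shared with the member was 2082 bases for GATC, 368 for CBX3, 149 for NFATC3 and 63546 for RAP2C-AS1. HNRNPA2B1 also overlaps NFE2L3 on the opposite strand, which had 9.81% of its level and shares 14069 bases. For 14 members the table also lists processed copies named after them, 60 pseudogenes in all, whose summed normalized count was at most 3.12% of the gene's own (HNRNPC). HNRNPA1 had 31 such copies with at most 1.00% of its level. HNRNPA1L2 and HNRNPA1P48, listed as protein-coding, are themselves copies of HNRNPA1, and their values, with log2 fold changes of -0.06 and -0.12 (-0.05 and -0.03 without CFIm25-m 3), are uncertain for that reason.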

How the data were processed

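Poly(A+) RNA of 5 H9 samples was measured. The authors deposited 1 table with a signal per gene and sample, a read count divided by a size factor, along with the group means and their own comparison, 5 columns that were not used. The submitters' processing notes name HISAT2, featureCounts, Subread, DESeq2 and hg38. The strand setting and annotation release are not given in the sources used here. All values of each sample were whole multiples of 1 step (100% within 1e-06 reads), which gave the reads for the count tests. Normalized counts were tested across all genes with limma 3.58.1 (trend) in R 4.3.3 on log2(value + 1), a scale that understates changes of low genes. Genes with at least 10 in at least 2 samples were kept, with Benjamini-Hochberg adjustment over all of them. Alternatives were edgeR 4.0.16 (quasi-likelihood), DESeq2 1.42.0 (Wald), other scalings, filters, pseudocounts and variance models, a block by replicate number, and leaving out each sample. The fits were checked on simulated counts.

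Samples were grouped by their labels. The members and gene lists were chosen with earlier results of these data known. Values in every sample are given for the 5 members with the largest log2 fold change in each direction, the 5 with the highest level per kilobase, and for the PTBP, ESRP, RBFOX, MBNL, SFPQ, NONO and TRA2 genes and HNRNPL. Of the related lists, called genes are named, and otherwise the gene furthest from 0. SRSF2, SRSF7, HNRNPA0 and the other members named, ELAVL4 and U2AF1L5 were named after their values were seen. Of 2 rows for MATR3 the higher was kept. Start windows are from RefSeq for GRCh38.p14. A reference genome of another build was not used.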

Additional observations from a re-analysis of the deposited data

How the results depend on the processing

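Calls among the 47 members were 0 in each direction in limma-trend with TMM scaling, library totals, other filters and other pseudocounts, without the trend, and in edgeR and DESeq2. MBNL2 was not among the genes kept at the filter of 50. It entered the other fits only through the clones, so its calls counted below are no support for a difference. Sample quality weights gave 2 lower and 3 higher. Leaving out 1 sample gave 0 to 2 lower and 0 to 2 higher, and all of these came without CFIm25-m replicate 3. The members' median log2 fold change was -0.0089 with library totals and between -0.11 and -0.04 under the other settings. The related lists had 1 lower and 0 higher without the trend, 1 lower and 6 higher with sample quality weights, and 2 higher in DESeq2. The 1 lower without the trend was RALYL, which entered the test only through the mock controls. With 1 sample left out, 0 to 4 were higher, 0 of them without mock control 1, mock control 2 or CFIm25-m 1 and 4 without CFIm25-m 3. NUDT21 stayed lower but missed the threshold without the trend (-0.86) and without mock control 1 or 2, and with 1 sample left out its log2 fold change ran from -0.95 to -0.80. Where 1 mock control was left, it was assumed to vary like the clones. Over all tested genes 361 were called, against 46 without the trend, 628 in DESeq2, 1782 with sample quality weights, 2107 with the block and 66 to 1044 with 1 sample left out. The cause of these shifts was not tested.

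With the replicate number as a block, 4 members were lower and 3 higher, HNRNPH3 and PTBP2 besides those called with sample quality weights, where 11.0% of all tested genes were called. The related lists had 3 lower and 6 higher. Deviations of samples that share a number had correlations of 0.00717 and 0.0180 across genes, and the numbers mark different clones, so they do not pair the samples. CFIm25-m 3 has no mock control of its number, and this fit rests on the other 4 samples. Under the settings tried, the number of members with a log2 fold change below 0 ran from 24 to 36. Depth limits MBNL2 most, with 7 reads in each mock control.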
